A study of Arabidopsis thaliana with 9 samples.

Results

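The PHT1 family of Arabidopsis thaliana comprises 9 phosphate transporter genes, and each was read by its locus from the 33602 loci listed in every library. They are numbered from PHT1;1 to PHT1;9, and the locus of each is given where the gene is first described. Messenger RNA was sequenced from root tips cut 2 to 3 mm from the apex, 5 days after germination, in 9 libraries with 1 library in each of 9 groups. Wild type (accession Col-0) and the mutants stop1 and almt1, both in Col-0, were grown on agar with 1 mM phosphate (high phosphate) or 5 µM phosphate (low phosphate), all at pH 5.7 and with sucrose in the medium. Wild type was also grown at 5 µM phosphate with iron left out and the chelator ferrozine added at 100 µM (low iron), and each mutant at 5 µM phosphate after 1 mM L-malate had been added to the medium. The protein STOP1 is a transcription factor of the zinc-finger class, and ALMT1 is a malate channel of the root that requires it. The labels name no allele for either mutant and do not say how many seedlings went into a library. No library has a replicate.

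PHT1 proteins sit in the plasma membrane and carry phosphate into the cell together with protons. In roots they take phosphate up from the medium, mostly through the epidermis, root hairs and root cap, and some members move it on toward the shoot. When phosphate runs short the MYB factor PHR1 and its relatives bind a promoter element named P1BS, whereas SPX proteins hold these factors back when phosphate is plentiful. PHF1 lets PHT1 proteins leave the endoplasmic reticulum, and the ubiquitin ligase NLA and the ubiquitin conjugase PHO2 mark them for removal. The RNAs IPS1 and AT4 blunt the microRNA that acts against PHO2.

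Gene models and sequences were taken from RefSeq's annotation of TAIR10.1, to which all 9 loci matched. Counts had been made by the authors on TAIR10, and the deposited tables hold no coordinates. Of the members, 4 lie in a cluster of 24.4 kb on chromosome 5, at chr5:17393598-17417972, and the other 5 are scattered over chromosomes 1, 2 and 3. The proteins encoded by PHT1;1 (AT5G43350, chr5:17399769-17402158, minus strand) and PHT1;2 (AT5G43370, chr5:17415698-17417972, plus strand) share 518 of 524 aligned residues (98.9%), and that of PHT1;3 (AT5G43360, chr5:17409524-17411214, plus strand) shares 94% with the former. The cluster's remaining gene, PHT1;6 (AT5G43340, chr5:17393598-17395148, minus strand), encodes a protein of 516 residues that shares 69.3% with the first. Outside the cluster, PHT1;4 (AT2G38940, chr2:16257157-16260253, plus strand) and PHT1;7 (AT3G54700, chr3:20248214-20250948, minus strand) share 89.2%. PHT1;8 (AT1G20860, chr1:7253998-7258952, minus strand) and PHT1;9 (AT1G76430, chr1:28678935-28682062, minus strand) lie far apart on the same chromosome. They share 79.3% of aligned residues with each other but only 52.8% and 51% with the first member, the lowest values it has with any other. Known for carrying phosphate toward the shoot as well as into the root during starvation, they are called the root-to-shoot pair below. PHT1;5 (AT2G32830, chr2:13927606-13929763, minus strand) encodes a protein of 542 residues. None of the 9 gene models has more than 3 exons after exons of alternative transcripts are merged, and exon length ranges from 1551 to 2012 bases. The first 90 coding bases of the 3 most alike members are shown because near-identity of this kind limits how reads can be told apart. Capitals mark bases that differ from the first line.
PHT1;1 (chr5:17401554-17401643, minus strand): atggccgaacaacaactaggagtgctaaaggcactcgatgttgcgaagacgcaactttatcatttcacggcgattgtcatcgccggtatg
PHT1;2 (chr5:17416074-17416163, plus strand): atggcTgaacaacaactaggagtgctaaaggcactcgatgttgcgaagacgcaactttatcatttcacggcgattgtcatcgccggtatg
PHT1;3 (chr5:17409524-17409613, plus strand): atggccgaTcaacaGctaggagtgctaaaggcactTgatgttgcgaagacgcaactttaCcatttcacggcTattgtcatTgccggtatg
The second sequence differs from the first at 1 of 90 positions and the last at 6.

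Of all stretches of 50 exonic bases, 40.4% in the first of these genes and 43.3% in the second occur exactly somewhere else in the genome, against 1.32% in the third and 0% in the other 6 members. With 100 bases these shares were 28.4% and 30.7%, and 0% elsewhere. Reads from such stretches cannot be placed, so the levels of this pair are uncertain and may be split between them. At high phosphate, however, the first gene had 2576 to 3725 counts in a library where its near-copy had 3 to 8. No member overlaps another locus in RefSeq's annotation, and by these models the lack of strand would not mix a member with a neighbour. The annotation behind the deposited counts was not examined.

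The element P1BS was searched as GNATATNC, which reads the same way on both strands, and a W-box core, the site of WRKY factors, was searched as TTGAC on both strands. The following stretches of 60 bases, read toward the gene, hold P1BS in capitals. They are shown because they hold the nearest site upstream of the annotated start in members with clear signal in these root tips.
PHT1;1 (chr5:17402911-17402970, minus strand): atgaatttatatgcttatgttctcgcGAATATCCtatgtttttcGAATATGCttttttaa
PHT1;2 (chr5:17415630-17415689, plus strand): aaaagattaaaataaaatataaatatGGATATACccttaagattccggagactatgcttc
PHT1;3 (chr5:17409105-17409164, plus strand): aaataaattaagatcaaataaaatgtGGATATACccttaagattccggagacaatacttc
PHT1;5 (chr2:13930205-13930264, minus strand): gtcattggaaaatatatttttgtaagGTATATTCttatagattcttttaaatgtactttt
PHT1;7 (chr3:20251039-20251098, minus strand): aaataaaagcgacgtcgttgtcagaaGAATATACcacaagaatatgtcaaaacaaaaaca
PHT1;8 (chr1:7259395-7259454, minus strand): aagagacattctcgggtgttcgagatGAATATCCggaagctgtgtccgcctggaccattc
The first line holds 2 sites, which begin at -786 and -768, counted in bases from the annotated start of the gene. Farther sites, not printed, begin at -569 in the gene of the second line and at -322 in that of the fifth. The next 2 lines are identical at 46 of 60 positions, with an unbroken run of 27 bases that takes in the whole element. This site begins at -42 from the annotated start of the former gene and at -393 from that of the latter, whose annotation holds no bases before the start codon. The latter gene is shown for that likeness and had at most 12 counts in any library.

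P1BS was found in the 250 bases before the annotated start in 2 of 9 members, against 5.46% of 27443 protein-coding genes, and in the 1000 bases before it in 7 of 9, against 20.3%. In the 1000 bases before the start codon, a window that can reach into the gene itself, 8 of 9 members held it, against 18.7% of genes. Of the members with no site before the annotated start, PHT1;4 held 2 overlapping sites that begin at -395 and -389 from its start codon, and the second gene of the root-to-shoot pair held 1 at -125. PHT1;1 and PHT1;8 also held 1 site each between the annotated start and the start codon, at -200 and -29 from the codon. These lie nearer to the annotated start than their upstream sites printed above. The W-box core was present in 3 of 9 members within 250 bases and in 9 of 9 within 1000, against 44.9% and 88.1% of genes. A match here is a description of letters, and no binding was measured.

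**Figure D1:**
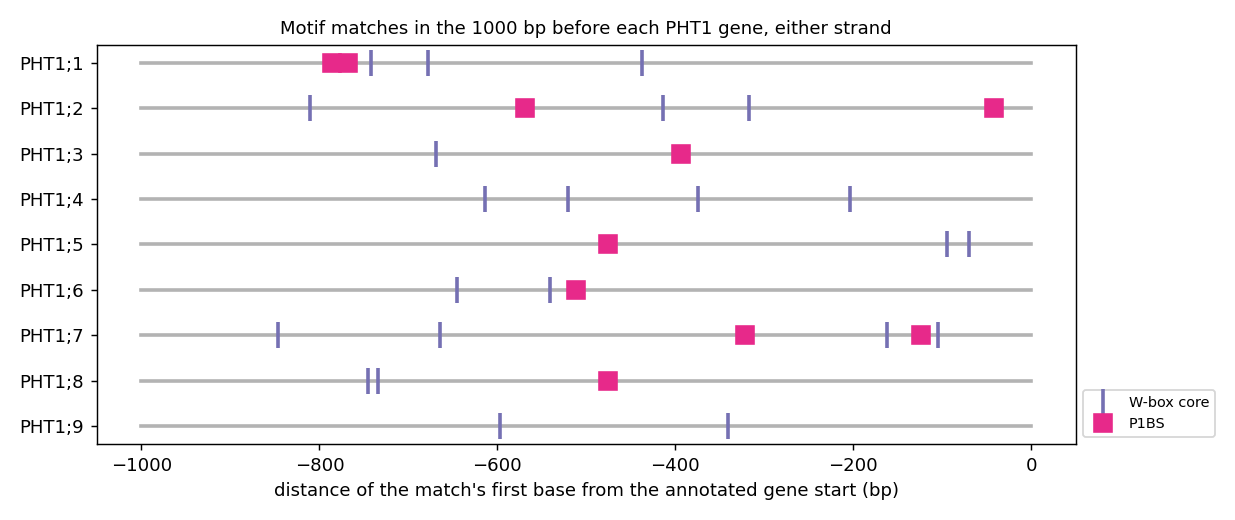
Positions of P1BS (squares) and W-box core (bars) matches in the 1000 bp before the annotated start of each PHT1 gene, with distance from the start in bp on the horizontal axis. Upstream P1BS matches appear in 7 of 9 genes, and W-box cores in 9 of 9.

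Gene counts per library ranged from 20619740 to 37189056. Between 4.186% and 14.26% of reads or alignments were listed as not unique in 8 libraries and 44.87% in wild type at low phosphate, and 2.551% to 2.651% were listed as ambiguous in the low-iron and both malate libraries against 0.9559% to 1.687% in the other 6, so treatment and this difference between libraries cannot be told apart. ALMT1 had 1, 2 and 0 counts in the stop1 libraries. Its counts in almt1 were 1337, 3232 and 575 in the high-phosphate, low-phosphate and malate libraries, and STOP1 had 4408, 4288 and 4114 in stop1, so these counts do not check those labels. Root apex markers summed to 127.2 to 190 CPM (counts scaled by library size with the TMM method), with none of 8 at 0 in any library. Root hair and epidermis markers, the cell types in which several members are known to act, summed to 450.1 to 763.6 CPM with none of 8 at 0. Shoot markers summed to 29.62 to 73.86 CPM at high phosphate and 7.489 to 18.44 CPM in the other 6 libraries, with at most 1 of 5 at 0. Endodermis and xylem markers, with none of 9 at 0, summed to 769.2 to 951 CPM at high phosphate and 306.8 to 841.3 CPM in the others. The part of these cell types in the results was not tested, and in such bulk samples fewer cells of a type and less RNA per cell cannot be told apart.

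In all 9 libraries PHT1 transcripts were dominated by PHT1;1 and PHT1;4, the main uptake pair of Arabidopsis roots. Summed over the family and divided by exon length, the level was 86.65, 94.36 and 68.87 CPM per kb at high phosphate in wild type, stop1 and almt1. It was 652.3, 422.8 and 310.8 CPM per kb at low phosphate, 443.6 in wild type with low iron, and 231.9 and 380.2 in stop1 and almt1 with malate. Each of the 6 libraries grown at 5 µM phosphate was above each of the 3 grown at 1 mM. At high phosphate the first of the pair made up 74.47% of the family level in wild type, 53.66% in stop1 and 70.23% in almt1, with nearly all of the rest from the other. Exon length was not corrected for stretches that occur elsewhere in the genome. These were 40.4% of 50-base and 28.4% of 100-base stretches in the first gene, and 0% in the second. The level of the first may therefore be too low, and where it trails or equals the second the order is uncertain. By these uncorrected shares the second led at low phosphate in each genotype. It had 46.88%, 60.71% and 52.55% against 34.77%, 30.96% and 34.98% for the first. With malate the order of the pair was the same in stop1, at 42.03% and 46.05%, and turned in almt1, at 44.55% and 37.82%. With low iron they were level, at 40.44% and 40.46%. PHT1;2 went from 0.1074%, 0.06717% and 0.1931% of the family level at high phosphate to 13.06%, 5.064% and 9.563% at low phosphate. It held 11.27% to 17.95% in the low-iron and malate libraries. No other member exceeded 1.992% of the family level in any library.

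**Figure D2:**
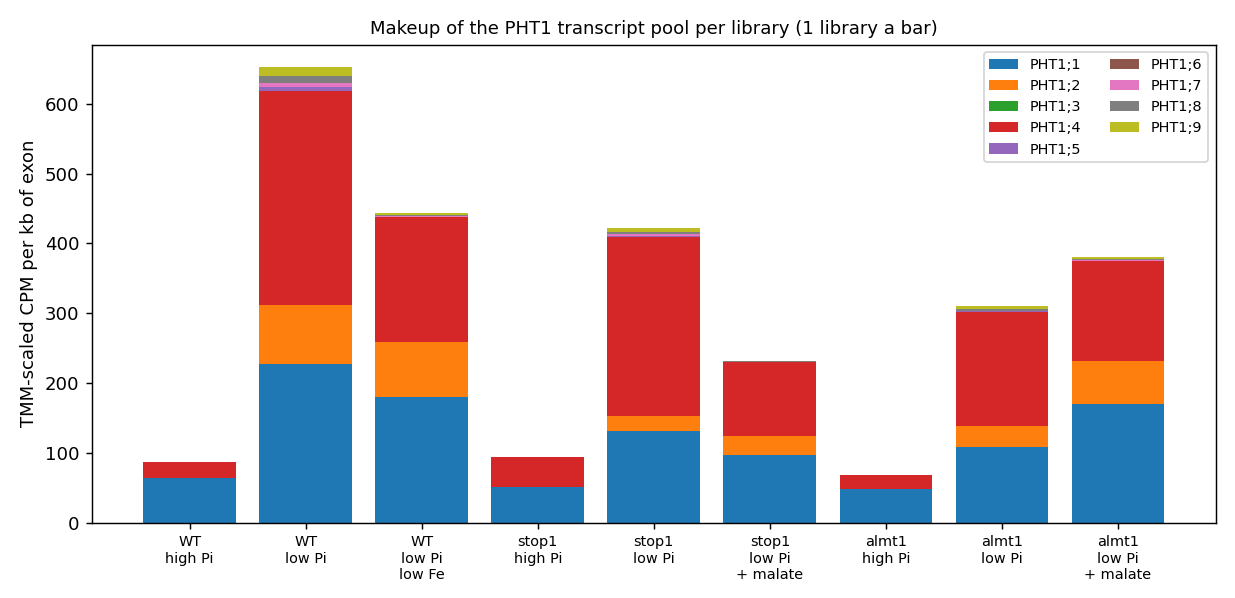
Family transcript level per library, in TMM-scaled CPM per kb of exon, stacked by member with 1 library a bar. High-phosphate bars end between 68.87 and 94.36 and hold almost only the main uptake pair, while PHT1;2 appears in the 6 bars at 5 µM phosphate.

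In the order of levels per kb at low phosphate, the main uptake pair, with its second gene ahead, was followed by PHT1;2, PHT1;9 and PHT1;8 in all 3 genotypes. In wild type these levels were 305.8, 226.8, 85.19, 12.99 and 9.45 CPM per kb, and no neighbours among them overlapped in their 95% Poisson intervals, which cover counting error only. The intervals leave out reads from stretches that occur elsewhere in the genome, so the order within the main uptake pair is uncertain. The next places went to PHT1;5 and PHT1;7, at 6.823 and 5.022 CPM per kb in wild type. Their intervals overlapped in stop1 (2.245 and 1.815 CPM per kb) and in almt1 (0.8488 and 0.8887). The last places went to the remaining members of the chromosome 5 cluster, whose intervals overlapped each other in every genotype.

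**Figure D3:**
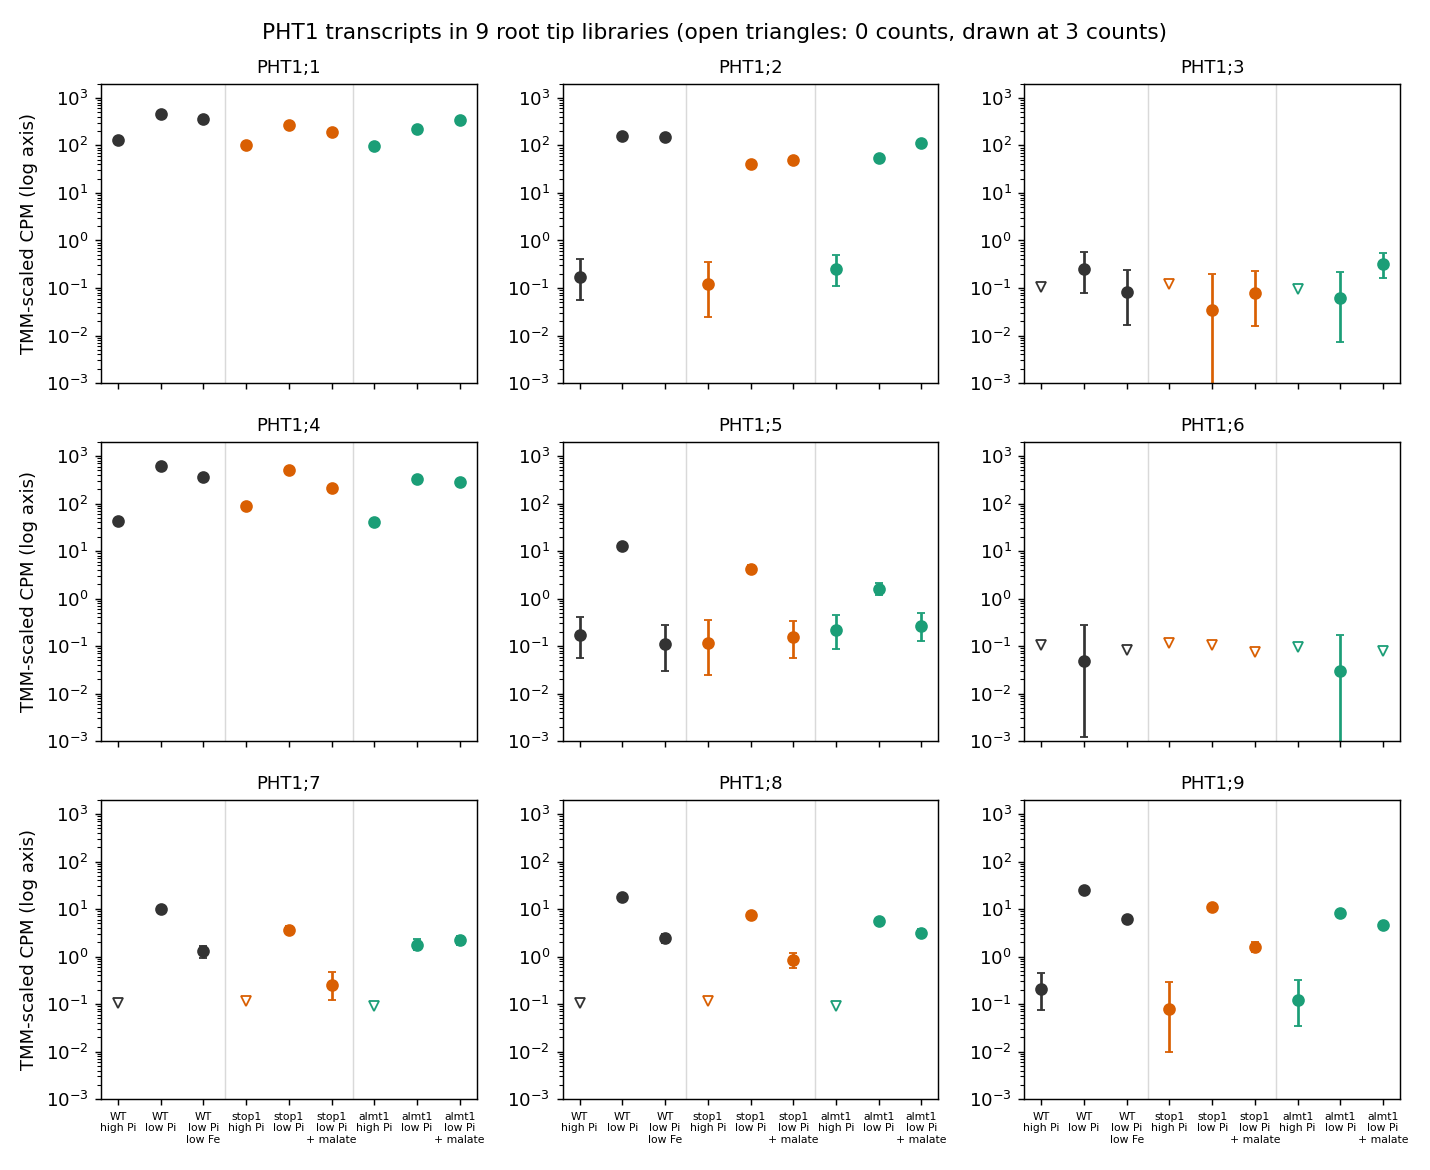
TMM-scaled CPM of each PHT1 gene in each of 9 libraries on a log axis, with 95% Poisson intervals for counting error and open triangles for 0 counts, drawn at 3 counts. The lowest value of the main uptake pair is 40.35 CPM, and PHT1;7 and PHT1;8 are at 0 counts in the 3 high-phosphate libraries.

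Low phosphate was compared with high phosphate over the 3 genotypes, to ask how the transporters of the tip respond to scarcity of their substrate. All 7 members that passed the filter on low counts rose, and PHT1;3 and PHT1;6 did not pass it. Genotype entered as a block in a quasi-likelihood fit with edgeR over 20340 genes, of which 1.81% were higher and 1.9% lower at a Benjamini-Hochberg adjusted p of 0.05. Of the 7 members, 5 had at most 8 counts in each high-phosphate library and so passed the filter only through their low-phosphate level. Neither their count nor the adjusted p given below for each of these 5 is therefore support by itself for a rise. For them the rise is read from the counts in single libraries. As a description, the median log2 fold change of the 7 was 6.65, or 5.26 with the members at 0 counts set to their lower bounds, against 0.003 over all genes tested. Without the stop1 pair of libraries 0 members and 1 gene in all passed, with log2 fold changes of the members from 1.48 to 11.33 and adjusted p from 0.0646 to 0.227, whereas 7 members passed without either other pair and with DESeq2. In single pairs of libraries, members at least 2-fold higher with an interval excluding equality numbered 8 of 9 in wild type, 7 in stop1 and 7 in almt1, against 11.8%, 3.76% and 3.04% of genes.

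The main uptake transporters were already transcribed at high phosphate. PHT1;1 stood at 129.8 CPM at high and 456.4 CPM at low phosphate in wild type, at 101.9 and 263.4 CPM in stop1, and at 97.32 and 218.8 CPM in almt1. The groups did not overlap. Its log2 fold change was 1.44 (SE 0.17, adjusted p = 0.0286, edgeR), higher in 3 of 3 genotypes. PHT1;4 stood at 43.64 and 611.4 CPM in wild type, at 87.09 and 513.1 CPM in stop1, and at 40.35 and 326.5 CPM in almt1. Again each low-phosphate library was above each high-phosphate library, and the highest value at high phosphate was that of stop1. Its log2 fold change was 3.11 (SE 0.29, adjusted p = 0.0202), and the log2 ratio within a genotype was 3.81 in wild type, 2.56 in stop1 and 3.02 in almt1.

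The near-copy PHT1;2, also an uptake transporter of the root, went from near absence to a place behind the main uptake pair. It had 5, 3 and 8 counts at high phosphate in wild type, stop1 and almt1, and 3252, 1147 and 1845 counts at low phosphate. In CPM these were 0.1743, 0.1186 and 0.2489 against 159.5, 40.07 and 55.64, so the lowest low-phosphate library was still far above the highest high-phosphate one. The log2 fold change was 8.70 (SE 0.36, adjusted p = 0.00651, edgeR). The gene it so closely resembles changed by 1.44 on the same scale. The difference between these changes was not tested. A further gene of that cluster, PHT1;3, was at 0 in each library grown at 1 mM phosphate and had 5, 1 and 2 counts at low phosphate, and the last of them, PHT1;6, known for its transcription in anthers, had 0 counts at high phosphate and 1, 0 and 1 at low phosphate. For the latter, both conditions were at or under the floor of 3 counts, and expression was not detectable at this depth.

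PHT1;5, which moves phosphate between source and sink organs, had 5, 3 and 7 counts at high phosphate and 262, 121 and 53 at low phosphate in wild type, stop1 and almt1. In CPM, the low-phosphate values were 12.85, 4.227 and 1.598, in that order, and each exceeded the high-phosphate values of 0.1186 to 0.2178. The log2 fold change was 4.76 (SE 0.66, adjusted p = 0.0369, edgeR). PHT1;7 had 0 counts in every high-phosphate library and 205, 104 and 59 at low phosphate, which is at least 96.1-fold, 30.6-fold and 19.1-fold higher against a floor of 3 counts per library (adjusted p = 0.0291). These bounds leave out the counting error of the low-phosphate count, and with it the exact 95% intervals of the log2 ratio began at 6.28, 4.61 and 3.91.

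In the root-to-shoot pair, PHT1;8 had 0 counts at high phosphate and 364, 216 and 188 at low phosphate in wild type, stop1 and almt1, at least 171-fold, 63.6-fold and 60.7-fold higher against the same floor (adjusted p = 0.0219, edgeR). Its exact 95% intervals of the log2 ratio began at 7.11, 5.68 and 5.61. PHT1;9 had 6, 2 and 4 counts at high phosphate and 521, 323 and 278 at low phosphate, or 25.55, 11.28 and 8.383 CPM. Its log2 fold change was 6.65 (SE 0.25, adjusted p = 0.00651). In both genes wild type had the highest value at low phosphate, and no low-phosphate library came near a high-phosphate one.

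**Figure D4:**
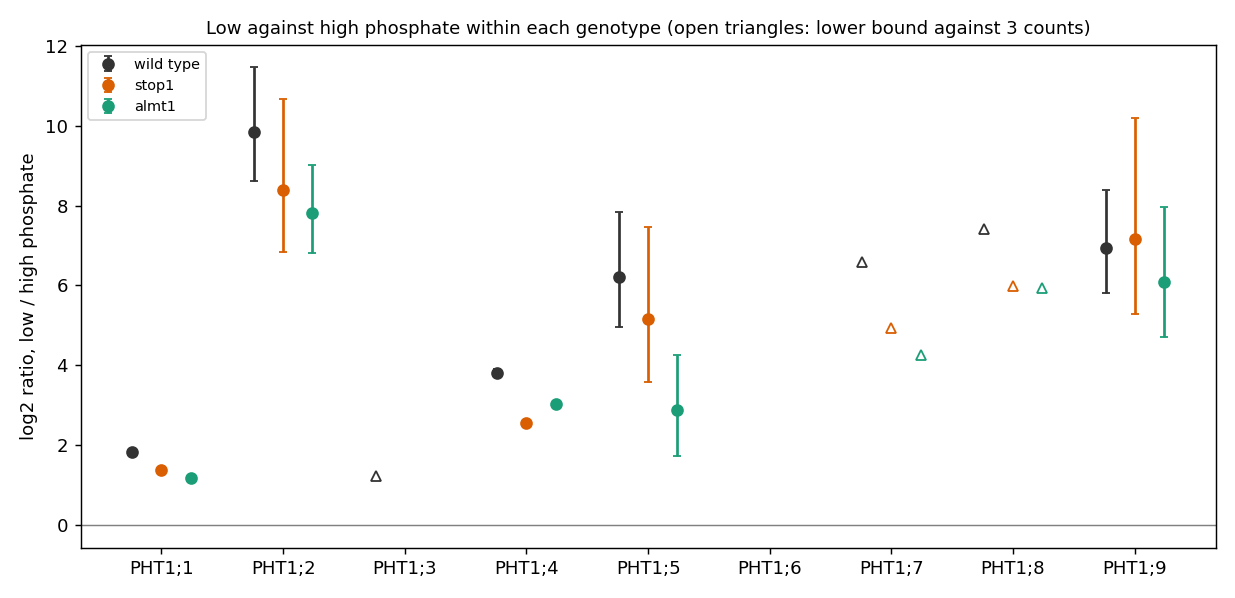
Log2 ratio of low to high phosphate for each PHT1 gene in wild type, stop1 and almt1, each from 1 library a condition, with exact conditional binomial 95% intervals for counting error. Filled points and lower bounds (open triangles, against 3 counts) all lie above 0, from 1.17 for PHT1;1 in almt1 to 9.84 for PHT1;2 in wild type.

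The mutants were then compared with wild type, stop1 and almt1 standing in for replicates of 1 mutant class, to ask whether the family depends on the STOP1 and ALMT1 genes. At low phosphate the fitted difference was below 0 for all 8 members tested, but none passed edgeR's quasi-likelihood test over 21229 genes, of which 2.12% were higher and 4.48% lower in the mutants. Without adjustment 4 of 8 had p under 0.05, and DESeq2 called 2, PHT1;1 (adjusted p = 0.0271) and PHT1;5 (adjusted p = 0.0397). With the malate library of stop1 or of almt1 left out, edgeR called 4 members, which were the first of these, PHT1;2 and the root-to-shoot pair. By the 2-fold rule on single libraries, 5 of 9 members were lower in stop1 than in wild type and 6 of 9 in almt1, against 9.06% and 9.46% of genes. Over the 7 members that passed the filter of the comparison of low with high phosphate, the log2 ratio to wild type ran from -1.99 to -0.25 in stop1 and from -3.01 to -0.91 in almt1, so each of them had its highest low-phosphate value in wild type. Wild type at low phosphate is the library with 44.87% of reads or alignments not unique, and the part of this in the difference was not tested.

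PHT1;5 had the lowest adjusted p of the family here, at 12.85 CPM in wild type, 4.227 CPM in stop1 and 1.598 CPM in almt1, a log2 difference of -2.15 (SE 0.53, adjusted p = 0.0622). PHT1;2 came next, at 159.5 CPM against 40.07 and 55.64 CPM (-1.74, SE 0.49, adjusted p = 0.0971). PHT1;4 was the least apart, at 611.4 CPM against 513.1 and 326.5 CPM (-0.54, SE 0.49, adjusted p = 0.522). At high phosphate no member and no gene passed (0% in each direction, edgeR), 893 genes but 0 members had an unadjusted p under 0.05, and DESeq2 called 0 members and 0 genes. There this last gene was at 87.09 CPM in stop1 against 43.64 CPM in wild type, a log2 ratio of 1.00 with a counting interval of 0.90 to 1.10, while almt1 was at 40.35 CPM, a log2 ratio of -0.11.

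Whether the response to low phosphate itself was larger in wild type than in the mutants was tested as the difference of the responses. No member passed (edgeR), and 0 had an unadjusted p under 0.05, beside 0.688% of genes higher and 0.561% lower, and DESeq2 called none. Estimates could be had for 5 members and were all above 0, from 0.32 (SE 1.79) for PHT1;9 to 2.26 (SE 1.23, adjusted p = 0.328) for PHT1;5. With the malate library of stop1 or of almt1 left out, 1 member passed, PHT1;4, at a log2 difference of 1.02 (adjusted p = 0.00879 and 0.00922). The intervals are wide, and a difference is neither shown nor bounded closely by these libraries.

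Low iron in wild type at low phosphate was compared with low phosphate alone. The low-iron library also had 2.651% listed as ambiguous and 4.389% as not unique, against 0.9559% and 44.87% at low phosphate alone. The treatment and these differences between libraries cannot be told apart. PHT1;5 fell from 262 counts (12.85 CPM) to 4 counts (0.1093 CPM), a log2 fold change of -6.83 (SE 0.85, adjusted p = 0.00542, edgeR). It thereby stood beside its high-phosphate level of 0.1743 CPM, with a log2 ratio of -0.67 and a counting interval of -3.01 to 1.54. It was the 1 member of 8 tested that passed, while 12.5% of genes were higher and 18.1% lower. PHT1;5 had at most 10 counts in each high-phosphate, low-iron and malate library, and so passed the filter only through low phosphate alone. Its adjusted p is therefore not support by itself for a fall, which is read from the counts. The median of the members was -1.81 against -0.006 over all genes. The number passing was 2 with DESeq2, 4 without the low-phosphate library of either mutant and 5 without the malate library of either mutant, each of which enters only through the estimate of spread.

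PHT1;7 and the root-to-shoot pair were at 1.285, 2.432 and 6.04 CPM with low iron and at 10.05, 17.85 and 25.55 CPM at low phosphate alone, in order of their numbers. The log2 differences were -2.96, -2.87 and -2.08, with adjusted p of 0.172, 0.0728 and 0.0603, so they did not pass, although DESeq2 called the last of them (adjusted p = 0.0137). By the 2-fold rule these 3 and the gene described before them were lower, 4 of 9 members against 17.8% of genes. The 3 most abundant members differed less, and none of them passed. The main uptake pair was at 361 and 358.7 CPM against 456.4 and 611.4 CPM, and the near-copy of its first gene at 149.1 against 159.5 CPM. Compared with high phosphate, 6 of 9 members were at least 2-fold higher with low iron, against 12.6% of genes.

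Malate was compared with low phosphate alone in the 2 mutants. The malate libraries of stop1 and almt1 also had 2.613% and 2.551% listed as ambiguous, against 1.62% and 1.49% at low phosphate alone. The treatment and this difference between libraries cannot be told apart. PHT1;5 fell in both mutants. In stop1 it stood at 4.227 CPM at low phosphate and at 0.1533 CPM with malate, and in almt1 at 1.598 and 0.2649 CPM (fitted log2 fold change -3.69, SE 0.57, adjusted p = 0.00973, edgeR). In counts these were 121 and 6 in stop1, and 53 and 10 in almt1. PHT1;5 passed the filter on low counts only through libraries at low phosphate alone. Its adjusted p is therefore not support by itself for a fall, which is read from the counts. PHT1;9 fell as well, with 11.28 and 1.61 CPM in stop1 and 8.383 and 4.557 CPM in almt1 (-1.78, SE 0.47, adjusted p = 0.0384). PHT1;2 rose, with 40.07 and 48.94 CPM in stop1 and 55.64 and 115.3 CPM in almt1 (0.67, SE 0.19, adjusted p = 0.0374). Thus 1 of 8 members tested was higher and 2 were lower, while 17.2% of genes were higher and 19.4% lower, shares close to those of the members. The median of the members was -1.003 against -0.025 over all genes.

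These calls depended on single libraries. The number of members passing was 0 without stop1 at low phosphate, 1 without the high-phosphate library of either mutant, 4 without almt1 at low phosphate and 5 without the malate library of either mutant. Leaving out single libraries moved the log2 fold changes of the called members, in the order given above, between -4.77 and -2.56, between -2.79 and -0.90 and between 0.29 and 1.04. In the members that fell, the smallest change came without a stop1 library, either that at low phosphate or that with malate.

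The mutants differed in how far malate went with these transcripts, a difference that was not tested for want of replicates. In stop1, 5 of 9 members were lower and 0 higher by the 2-fold rule, against 13.8% of genes lower. In almt1, 1 was lower and 2 were higher, against 7.1% and 4.28% of genes. PHT1;7 was at 3.634 CPM at low phosphate and 0.2556 CPM with malate in stop1, and at 1.779 and 2.225 CPM in almt1. The log2 ratio was -3.83 in the former (interval -4.93 to -2.89) and 0.32 in the latter (-0.18 to 0.83). PHT1;8 was at 7.547 and 0.8433 CPM in stop1 and at 5.669 and 3.179 CPM in almt1, and its fitted change did not pass (-1.87, adjusted p = 0.084). PHT1;4 was at 513.1 and 213.6 CPM in stop1 and at 326.5 and 287.4 CPM in almt1. PHT1;1 was at 263.4 and 196.1 CPM in stop1 and at 218.8 and 340.8 CPM in almt1, with log2 ratios of -0.43 and 0.64. PHT1;3 had 1 and 3 counts in stop1, and 2 and 12 in almt1, the most it reached in any library.

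**Figure D5:**
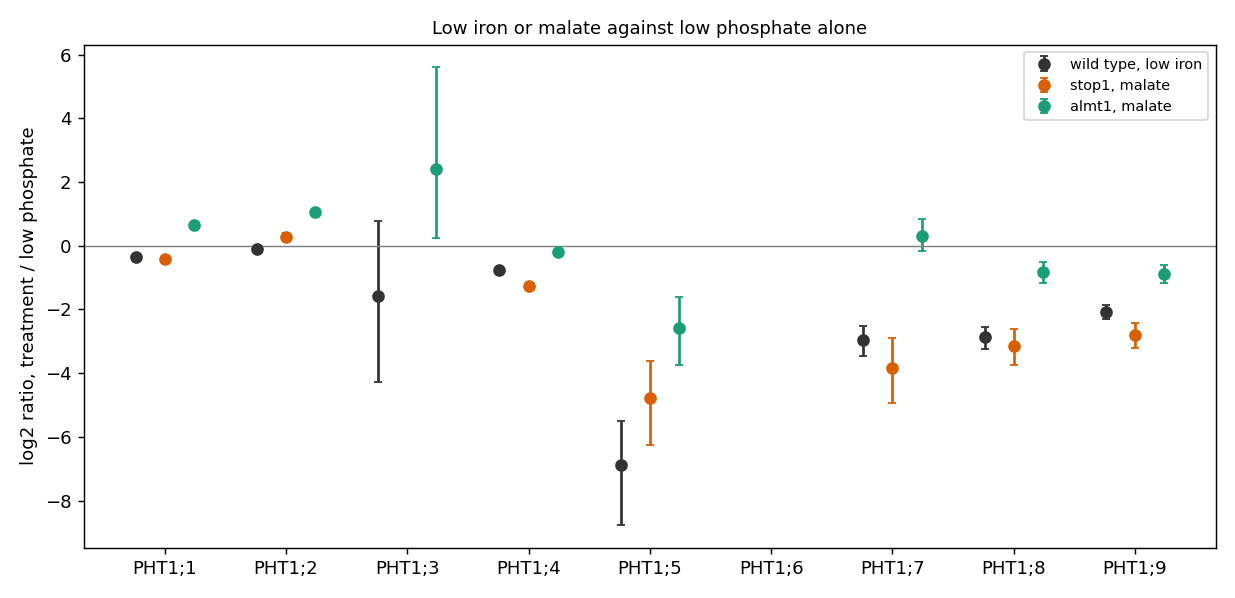
Log2 ratio of low iron (wild type) or malate (stop1, almt1) to low phosphate alone for each PHT1 gene, each from 1 library a condition, with exact conditional binomial 95% intervals for counting error. PHT1;5 is below 0 in all 3 comparisons (-6.88, -4.79 and -2.59), whereas PHT1;1 is below 0 in stop1 and above it in almt1. PHT1;7 is below 0 in stop1, and its interval in almt1 includes 0.

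Set against high phosphate in the same mutant, 5 of 9 members were at least 2-fold higher with malate in stop1 and 7 of 9 in almt1, against 10.5% and 7.17% of genes. The members counted in almt1 are not those counted at low phosphate alone, since PHT1;3 joined them with 12 counts against 0 and PHT1;5 was no longer among them. Of the members with counts at high phosphate, PHT1;2 had the largest ratio, 412-fold and 463-fold, and for those at 0 counts only lower bounds could be had. PHT1;4 was 2.45-fold and 7.12-fold higher. The member that fell furthest with malate was near its high-phosphate level, with log2 ratios of 0.37 in stop1 (interval -1.86 to 3.00) and 0.28 in almt1 (-1.26 to 1.91). These comparisons use the same high-phosphate libraries as those of low with high phosphate.

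Members differed in how closely they followed each other over the 9 libraries. The points share phosphate level, library set and depth, so Pearson's r of log2 CPM is a description here. It was 0.994 within the root-to-shoot pair, and 0.988 and 0.984 between that pair and PHT1;7, which lies on another chromosome. Within the main uptake pair it was 0.9, and between the near-copies of the chromosome 5 cluster 0.932. PHT1;5 followed the others least, with r from 0.387 to 0.754.

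Among genes outside the family, the highest r was found with PAP11, a purple acid phosphatase, for PHT1;8 (0.9984), and with the phosphatase PFA-DSP2 for the other gene of the pair (0.9966). For PHT1;7 it was PPa4, a soluble pyrophosphatase (0.9938). For PHT1;4 it was G3Pp1, a putative glycerol-3-phosphate permease (0.9892), followed by PAP17, another purple acid phosphatase (0.9864). VTC4, a phosphatase of ascorbate synthesis, came first for PHT1;2 (0.9881). For the first of the main uptake pair the closest gene was AT2G42150 (0.9897), which ranged only from 0.91 to 2.21 CPM. For PHT1;5 the closest was AT1G65485 (0.9945), which reached only 0.588 CPM in any library. For PHT1;3, with at most 12 counts in any library, the closest was IBS1 (0.9787). With a smaller prior count in the log2 CPM the highest r of these members was between 0.9861 and 0.9991, but the order of the closest genes moved. In PHT1;3, IBS1 gave way to sks9 (0.9863). For PHT1;4 the first place then went to AT2G34210 (0.9895), with G3Pp1 second (0.9893) and PAP17 no longer among the first 2, and for PHT1;7 to AT2G32140 (0.9959), with PPa4 second (0.9943).

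The genes that govern the family were followed in the same tests, and their counts at low phosphate stand beside the 1.81% of all genes tested that were higher and the 1.9% that were lower. Of genes for phosphate sensing and transcription, 3 of 15 tested rose at low phosphate and 0 fell, with a median log2 fold change of 0.07. These were the inhibitors SPX1 (6.18, SE 0.30, adjusted p = 0.00984, edgeR), SPX2 (1.79, SE 0.12) and SPX3 (8.01, SE 0.41), while PHR1 ranged only from 49.04 to 68.94 CPM over the 9 libraries. Of genes for trafficking and turnover, 3 of 8 rose and 1 fell. IPS1 (8.95, SE 0.16), AT4 (4.42, SE 0.23) and PHF1 (1.98, SE 0.11) were higher, and NLA, whose product marks PHT1 proteins for removal, fell by 1.41 on the log2 scale (SE 0.13, adjusted p = 0.0202). Of listed transporters of other families, for phosphate or putatively for glycerol-3-phosphate, 3 of 14 rose and 0 fell. These were the putative glycerol-3-phosphate permease G3Pp1 (5.05, SE 0.35), the mitochondrial carrier PHT3;2 (4.80, SE 0.42) and the vacuolar importer PHT5;1 (0.75, SE 0.11).

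Over all genes, 17.2% were higher and 19.4% lower with malate, and 12.5% were higher and 18.1% lower with low iron, and the counts below are read against these shares. With malate, 2 of 16 sensing and transcription genes rose and 6 fell, among them SPX3 (-3.19, SE 0.66) and the transcription factor gene WRKY75 (-2.21, SE 0.29). Of trafficking and turnover genes 0 rose and 4 of 8 fell, including AT4 (-1.97, SE 0.35) and IPS1 (-1.53, SE 0.42). Of the other transporters 4 of 14 rose and 1 fell. With low iron, 2 of 16 sensing genes rose and 9 fell, again with SPX3 (-4.88, SE 0.96) and WRKY75 (-3.40, SE 0.43). Here 0 of 8 trafficking genes rose and 3 fell, and 5 of 14 other transporters rose and 2 fell. Medians over these lists were -0.42, -0.56 and 0.14 with malate and -0.90, -1.05 and 0.17 with low iron.

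Markers of cell types were read in the same tests, and their counts stand beside the same shares of all genes, 1.81% higher and 1.9% lower at low phosphate, 17.2% and 19.4% with malate, and 12.5% and 18.1% with low iron. At low phosphate 1 of 8 root hair and epidermis markers rose, RHD6 (0.85, SE 0.11, adjusted p = 0.0341, edgeR), 2 of 4 shoot markers tested fell, and 0 of 8 root apex and 0 of 9 endodermis and xylem markers passed. With malate 4 of 8 root apex markers rose, 2 of 8 root hair and epidermis markers rose and 1 fell, 3 of 9 endodermis and xylem markers fell, and 0 of 4 shoot markers passed. With low iron 2 of 8 root apex markers rose and 1 fell, 2 of 8 root hair and epidermis markers rose, 2 of 9 endodermis and xylem markers rose, and 1 of 4 shoot markers fell. Median log2 fold changes of the root hair and epidermis list were -0.12 at low phosphate, 0.03 with malate and 0.38 with low iron. Their part in the levels of the transporters was not tested.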

How the data were processed

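The authors deposited raw counts for each locus, made with TopHat2 and HTSeq on TAIR10, per the submitters' processing notes; versions and settings are not given in the sources used here. Per the labels' protocols, libraries came from TRIzol RNA with a TruSeq kit that does not keep strand. The title and the characteristics of the stop1 malate sample disagree on phosphate, and the characteristics (low phosphate) were followed. The 5 summary lines (6.953% to 50.06% of the listed total) stayed out of sizes and tests.

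Counts were scaled by TMM in edgeR 4.0.16 (R 4.3.3, limma 3.58.1), filtered with filterByExpr (minimum count 10, minimum total 15) and tested with robust quasi-likelihood fits, Benjamini-Hochberg adjusted over all genes tested at 0.05. The SE is the absolute log2 fold change divided by the square root of F. Low against high phosphate used 6 libraries with genotype as a block (2 residual degrees of freedom). Other fits used 9 libraries, with a stop1 against almt1 term (2 degrees of freedom) or, for mutants against wild type, without it (3). This takes the spread of the single wild-type libraries to be that of the mutants. Nothing says that libraries came from separate growths, so p-values measure only the spread between these samples. Members with 0 counts on both sides gave no usable estimate.

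In 13 pairs of single libraries, log2 ratios carry exact conditional binomial 95% intervals, and the 2-fold rule asks for at least 2-fold with an interval that excludes equality. A count of 0 was read as up to 3 counts (0.0767 to 0.147 CPM). Intervals and floors cover counting error only. No pair of libraries agreed within sampling noise. Pattern likeness used log2 CPM with a prior count of 2. Sequences and gene models came from RefSeq's TAIR10.1. Words of 50 and 100 bases were used because read length is not given in the sources used here. Named genes were all 9 members, the 2 genes most alike each member in pattern, of which the text gives a selection, and up to 3 called members per list with the largest change. PHR1 and NLA were named after their values were seen. The members and lists were chosen with earlier results of these data known. Fits were tested on simulated data. Alternatives were DESeq2 1.42.0 size factors, no filter, DESeq2's Wald test, leaving out single libraries, other scalings of pairs and a prior count of 0.5.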

Additional observations from a re-analysis of the deposited data

Results flagged for a closer look

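In PHT1;1, malate went with a lower level in stop1 (log2 ratio -0.43 to low phosphate alone) and a higher one in almt1 (0.64), a gap of 1.06 on the log2 scale. In PHT1;7 the ratios were -3.83 in stop1 and 0.32 in almt1, a gap of 4.15, and the counting interval in almt1 included equality. PHT1;1 stands out because its counting intervals lie on opposite sides of equality in the 2 mutants, although neither ratio met the 2-fold rule. PHT1;7 stands out because its ratios lie on opposite sides of equality, although no direction is shown for it in almt1. Each ratio rests on 1 library against 1, and the difference between the mutants was not tested.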

How the results depend on the processing

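No paired analysis was possible because each group holds 1 library and the labels give no replicate numbers, apart from the pairing of low with high phosphate by genotype, which is already in the fit of that comparison. The number of members called in low against high phosphate was 7 and ranged from 0 to 7 when 1 genotype's pair was left out. With malate it was 3, and from 0 to 5 when single libraries were left out. With low iron it was 1, and from 1 to 5, and 2 with DESeq2's Wald test. For the response difference it was 0, and from 0 to 1. For mutants against wild type at low phosphate it was 0, and from 0 to 4, and 2 with the Wald test. At high phosphate it was 0 under every alternative run, but only PHT1;1 and PHT1;4 had more than 8 counts in any library there. Other scaling and no filter left these counts within 1.5 times, and the cause of the other differences was not tested.

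Over all genes, low against high phosphate gave 754 calls, 1988 with the Wald test and 1 to 4599 without a pair. Malate gave 7763, and 69 to 10206 without a library. Low iron gave 6500, and 3337 to 10168. The response difference gave 265, 514 with DESeq2 size factors, 548 without the filter, 959 with the Wald test and 0 to 4641 without a library. Mutants against wild type at low phosphate gave 1401, 2264 with the Wald test and 130 to 1476 without a library.

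Leaving out a library turned the sign of values that had not passed. With malate, PHT1;1 ranged from -0.38 to 0.59 and PHT1;7 from -3.81 to 0.32. In the response difference PHT1;9 ranged from -0.74 to 1.11. At high phosphate PHT1;4 ranged from -0.11 to 1.00, PHT1;2 from -0.54 to 0.50 and PHT1;5 from -0.54 to 0.31. Without the filter the malate call of PHT1;9 was lost (adjusted p = 0.0557). Among 158 rescaled pair ratios no called value changed sign, and all moved by at most 0.18 on the log2 scale. Ratios with a count of 0 on either side were not rescaled.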
